A study of Mus musculus with 2 samples.

Results

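The GATA transcription factor genes of the mouse are 6 genes, Gata1 to Gata6, and their open chromatin was described here in the embryonic liver. Each gene was taken with its gene body and 50 kb to each side on the assembly mm10, with the gene models of GENCODE vM21, and the window of Gata2 was extended to 120 kb upstream. The members are 6 of 21938 protein-coding genes, were chosen by name, and were contrasted as the blood members Gata1, Gata2 and Gata3 against Gata4, Gata5 and Gata6. In DNase-seq the enzyme DNase I cuts accessible DNA in isolated nuclei, and sequencing of the cut ends shows where chromatin is open. The tissue was liver of B6NCrl mouse embryos at 11.5 days, pooled from both sexes, with no genetic change or treatment named. Only 1 biological sample was profiled, by 2 libraries that the labels call technical replicate 7 and technical replicate 1. There was no second group, so no p-value was computed, and nothing below carries an error between animals. Technical replicate 7 was sequenced on 2 instrument models, per its label, and the label of technical replicate 1 gives none.

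GATA factors are zinc finger proteins that bind the DNA motif WGATAR, where W is A or T and R is A or G. GATA1 drives red cell and megakaryocyte maturation, GATA2 maintains stem and progenitor cells of the blood, and GATA3 is best known from T cells; in maturing red cells GATA1 takes the place of GATA2 at shared sites, the Gata2 locus among them. GATA4, GATA5 and GATA6 act in endoderm, its neighbouring mesoderm and the heart, and GATA4 and GATA6 are needed as the liver bud forms. The liver at this stage holds hepatoblasts, mesenchymal cells, vessels and a growing red cell population. In such a bulk sample, a weak peak in many cells and a strong peak in few cells cannot be told apart.

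The shorter of each library's peak lists held 86036 peaks (technical replicate 7) and 42422 peaks (technical replicate 1), of which 46.2% and 89.9% overlapped a peak of the other library. Shared regions and counts come from these shorter lists unless others are named. The deposited peak value is the highest density of cuts in the peak, with list medians of 0.6249 and 1.263 in the same order. A density was therefore ranked only within its own library. Densities were whole multiples of 0.00401 and 0.0101. If such a step is 1 cut, which the headers do not state, the densities of the strongest start peaks can be given as cuts. For the GATA genes these were 174 to 474 in technical replicate 7 and 82 to 207 in technical replicate 1. Their counting errors were 4.6 to 7.6% and 6.9 to 11.0%. Such numbers belong to the highest density in a peak and not to all cuts in it. A shared start peak (a peak of both libraries within 1 kb of a start) was present at 59.0% of all protein-coding genes. Of the marker lists it was present at 5 of 10 erythroid genes, 4 of 10 hepatoblast genes, 4 of 6 progenitor genes, 2 of 5 megakaryocyte and mast cell genes, 2 of 6 endothelial genes, 5 of 6 stellate and mesothelial genes, 2 of 5 T cell genes and 1 of 5 heart muscle genes. In technical replicate 7 alone, where 65.0% of all genes had a start peak, 7 of 10 erythroid and 9 of 10 hepatoblast genes had one. Defining genes of several types, Alb, Alas2, Cd3e and Nkx2-5 among them, had no start peak in the shorter list of either library, so a start peak is not read here as a measure of expression.

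All 6 GATA genes were open at a start in both libraries. A shared peak, one overlapping between the libraries by at least 1 bp and centred within 1 kb of a start of the basic annotation, was found at 3 of 3 blood members and 3 of 3 of Gata4 to Gata6. The background was high, since 59.0% of all protein-coding genes had such a shared peak, 65.0% had a start peak in technical replicate 7 and 59.6% in technical replicate 1. The start peaks were weak for open genes: the strongest start peak over the 6 had medians of 1.612 and 1.692 in technical replicates 7 and 1, against 2.748 and 2.697 over all genes with a start peak. All 6 lay below the median gene in both libraries, a statement that rests for Gata3 on the 1 kb limit. With 2500 bp to each side of a start, an alternative added after the data were seen, Gata3 had 4.374 and 2.869, above the medians of 2.7 and 2.687, and the other 5 kept their values.

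**Figure D1:**
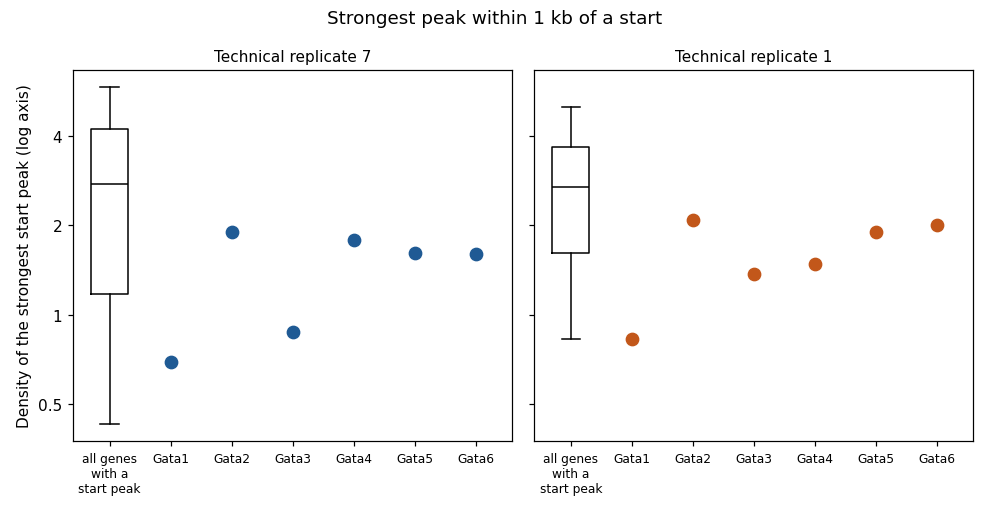
Density of the strongest peak within 1 kb of a start (log axis) for each GATA gene, in technical replicate 7 (left) and technical replicate 1 (right). The box gives the quartiles and median of all genes with a start peak and the whiskers their 5th and 95th percentiles; all 6 GATA genes lie below the median line in both libraries, and Gata1 is the lowest of them.

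Among the members the blood genes were not the more open at their starts. Ordered by technical replicate 7, the strongest start peak had a density of 1.899 at Gata2, 1.782 at Gata4, 1.618 at Gata5, 1.606 at Gata6, 0.8772 at Gata3 and 0.697 at Gata1. In technical replicate 1 the order was 2.091 at Gata2, 2.01 at Gata6, 1.899 at Gata5, 1.485 at Gata4, 1.374 at Gata3 and 0.8283 at Gata1. Gata1 was the lowest in both libraries, and Gata4, Gata5 and Gata6 changed order. Within 1 kb Gata2 had the highest value and Gata3 the second lowest, but within 2500 bp Gata3 had the highest in both libraries. On the reading of 1 step as 1 cut, several neighbours in this order differed by less than the counting error of their difference, the square root of the summed cuts. In technical replicate 7 these were Gata2 and Gata4, with 474 and 444 cuts, and Gata5 and Gata6, with 403 and 400. In technical replicate 1 they were Gata2 and Gata6, with 207 and 199, Gata6 and Gata5, with 199 and 188, and Gata4 and Gata3, with 147 and 136. Gata1 lay further than this below its neighbour in each library. Within 1 kb the medians were 0.8772 and 1.374 for the blood members and 1.618 and 1.899 for Gata4 to Gata6.

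Gata1, the red cell master regulator, had the weakest start of the 6, together with an upstream region at a distance known for an enhancer. Its window was chrX:7909260-8028071, and its reference start was that of the erythroid first exon, called IE, at position 7967910. At this start the strongest peak had a density of 0.697 in technical replicate 7, the 14.1 percentile of genes with a start peak, and 0.8283 in technical replicate 1, the 5.02 percentile. These were different peaks. The one of technical replicate 7 lay at −0.519 kb and overlapped no peak in the shorter list of technical replicate 1, whose longer list gave 0.5152 there. The shared region at −0.069 kb had densities of 0.5528 and 0.8283. The upstream start at position 7978071, the 5′ end of the gene in the comprehensive annotation, had no peak and no hotspot, a broader region of raised cutting, in either library. Gata1 is X-linked and the embryos were of both sexes, and the part of this in its densities was not tested.

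The peak at −0.519 kb and the region at −3.5 kb are shown because they hold the GATA motifs of the Gata1 promoter side that were open here. The first is chrX:7968292-7968566 and the second chrX:7971371-7971635, both on the minus strand, the sense of the gene, read from the RefSeq sequence of GRCm38 (mm10). Capitals mark WGATAR on either strand, that is the word AGATAA and the words that differ from it by T as the first base, by G as the last base, or by both. WGATAR lay in 32.4% of all peaks of technical replicate 7.

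Gata1 promoter side: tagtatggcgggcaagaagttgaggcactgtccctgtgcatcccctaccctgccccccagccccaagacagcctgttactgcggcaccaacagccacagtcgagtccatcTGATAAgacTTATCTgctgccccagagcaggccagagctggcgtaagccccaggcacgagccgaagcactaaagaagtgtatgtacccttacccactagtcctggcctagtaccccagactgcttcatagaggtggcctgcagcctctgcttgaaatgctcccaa

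Gata1 upstream region: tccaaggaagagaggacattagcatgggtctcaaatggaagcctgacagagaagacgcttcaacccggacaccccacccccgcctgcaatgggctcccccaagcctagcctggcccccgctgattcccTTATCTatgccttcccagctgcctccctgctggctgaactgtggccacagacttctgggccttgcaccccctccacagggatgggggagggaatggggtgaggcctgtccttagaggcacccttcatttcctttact

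The region at −3.5 kb, in an intron between the annotated starts, was the single distal shared region of the Gata1 window, with a density of 0.8932 in technical replicate 7 and 1.404 in technical replicate 1. Distal means centred over 1 kb from every start of the basic annotation. At −25 kb, the distance of another element described for Gata1, technical replicate 7 had 2 peaks, the stronger with a density of 0.5968, and the shorter list of technical replicate 1 had a peak of 0.6566 that overlapped neither. Its longer list added a peak of 0.5758 that overlapped the stronger one. The intronic region at 3.5 kb downstream was listed only in the longer list of technical replicate 7, at 0.2363. So of these 3 named distances only −3.5 kb held a shared peak in the shorter lists, and −25 kb held one too in the longer lists.

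Gata2, the progenitor factor, had the most shared regions of the 6 in its longer window; with 50 kb to each side it had 7, against 8 for Gata4. The window chr6:88073891-88257032 held 16 shared regions, 28 peaks in technical replicate 7 and 17 in technical replicate 1. Gata2 has a distal first exon, called 1S, at position 88193891 and a second start 4.44 kb downstream. The strongest start peak belonged to the second start, with densities of 1.899 and 2.091. The 1S start had 2 peaks of at most 0.5528 in technical replicate 7 and none in the shorter list of technical replicate 1, whose longer list gave 0.9192. The hotspot over the second start reached a −log10 FDR of 32.9 and 8.3 in technical replicates 7 and 1, and that over the 1S start 5.73 and 2.31. The second start was thus the stronger in both libraries by both measures.

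Sequences of 3 named Gata2 regions are shown because GATA factors are known to act on this locus through them. They are chr6:88203045-88203311 at 9.5 kb in an intron, chr6:88116857-88117057 at −77 kb and chr6:88189715-88189915 at −3.9 kb, all on the plus strand, the sense of the gene, from the same RefSeq sequence. In the first, capitals mark a composite of an E-box and a GATA motif (CANNTG, 6 to 8 bases, then a WGATAR word), which lay in 1.44% of all peaks of technical replicate 7. In the others they mark WGATAR on either strand.

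Gata2 intronic region: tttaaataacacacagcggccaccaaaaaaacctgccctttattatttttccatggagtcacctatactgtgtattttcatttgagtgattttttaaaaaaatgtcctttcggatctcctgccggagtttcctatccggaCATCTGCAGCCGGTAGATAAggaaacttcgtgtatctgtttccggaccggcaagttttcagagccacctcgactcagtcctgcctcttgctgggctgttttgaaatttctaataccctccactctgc

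Gata2 far upstream region: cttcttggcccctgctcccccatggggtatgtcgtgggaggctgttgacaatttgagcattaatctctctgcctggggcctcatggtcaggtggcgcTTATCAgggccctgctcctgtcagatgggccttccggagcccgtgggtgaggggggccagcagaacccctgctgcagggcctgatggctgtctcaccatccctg

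Gata2 near upstream region: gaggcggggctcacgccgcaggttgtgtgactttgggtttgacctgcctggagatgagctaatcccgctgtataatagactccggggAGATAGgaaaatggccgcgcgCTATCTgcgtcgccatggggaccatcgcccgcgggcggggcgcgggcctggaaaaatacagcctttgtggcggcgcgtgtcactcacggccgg

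The −77 kb element, a progenitor enhancer, held 2 shared regions. That at −76.9 kb had densities of 1.182 and 1.081 in technical replicates 7 and 1, and that at −77.3 kb had 0.6048 and 1.091. So the strongest peaks of the libraries at this element were different peaks. The −3.9 kb element was the strongest of the named ones, with 2.031 and 2.414. It also lies within 1 kb of a start of the non-coding gene Gm38708, and so was not counted as distal. At −2.8 kb technical replicate 7 had a peak of 0.4566, centred at −3.52 kb, and technical replicate 1 had one of 0.8687 only in its longer list. Neither list of either library held a peak at −1.8 kb, where the hotspots reached a −log10 FDR of 1.64 and 2.19. The named upstream elements of Gata2 were therefore unequally open, strong at −3.9 kb and without a listed peak at −1.8 kb.

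At 9.5 kb, an enhancer needed for blood stem cells and for vessels, technical replicate 7 had 2 peaks. The stronger, with a density of 1.574 at the 82.9 percentile of its list, held the composite. The weaker, of 0.697, overlapped a peak of technical replicate 1 with 1.141. Technical replicate 1 listed the side with the composite only in its longer list, at 0.8485. So the shared region counted at this element did not contain the composite, and the 2 libraries placed their stronger peak on different sides of it.

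The strongest distal regions of the Gata2 window lay farther out. At −119 kb, chr6:88075076-88075405, the densities were 4.518 and 3.121, at the 96.8 and 87.3 percentiles of the peak lists. At −87.7 kb they were 2.916 and 2.394, and at −69.8 kb 1.486 and 1.323. All 3 were intergenic, and none held WGATAR within 75 bp of its midpoint. The −119 kb region lay 1.36 kb inside the edge of the window, and the next shared region beyond it was 28.6 kb outside. Between it and Gata2 stands the start of Rpn1, a subunit gene of the oligosaccharyltransferase, which had 4.166 and 4.909, so which gene a region serves cannot be read from these positions.

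Gata3, the T cell factor, had a weak start and a strong peak just beyond it. Its window was chr2:9807078-9940034, with the reference start at 9878600. The strongest start peak had densities of 0.8772 and 1.374, the 18.9 and 19.8 percentiles of genes with a start peak. A peak at −1.1 kb, just outside the 1 kb limit, had 4.374 and 2.869, the 96.5 and 84.5 percentiles of the lists. It was the strongest peak of any kind in the Gata3 window in both libraries. The hotspot over the start reached a −log10 FDR of 115 and 4.7 in technical replicates 7 and 1. These values belong to whole hotspots, 1673 and 565 bp wide, and not to the start alone. The 1 kb limit left the peak at −1.1 kb out of the start values of Gata3. The sequence of this peak, chr2:9879588-9879823 on the minus strand, is shown for that reason; it holds no WGATAR word, composite or CTCF core (CCNNNAGNNGGC on either strand), and so has no capitals.

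Gata3 upstream peak: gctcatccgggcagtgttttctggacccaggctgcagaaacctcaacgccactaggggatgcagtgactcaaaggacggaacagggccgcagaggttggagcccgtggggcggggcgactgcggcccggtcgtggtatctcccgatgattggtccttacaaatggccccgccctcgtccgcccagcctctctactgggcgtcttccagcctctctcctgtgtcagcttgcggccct

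A second distal shared region at −10.9 kb, over an exon of 9230102O04Rik and beside the farthest Gata3 starts of the comprehensive annotation, had 0.709 and 1.333. Of the 16 peaks of technical replicate 7 in the Gata3 window, 12 overlapped none in the shorter list of technical replicate 1. The other 4 overlapped one, as did 46.2% of all peaks of technical replicate 7. The longer list of technical replicate 1 overlapped some of those 12, such as the peak at −2.59 kb with 0.6088.

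Gata4, a factor of liver endoderm and mesenchyme, had most of its peaks inside its gene body. The window chr14:63148922-63321692 held 8 shared regions, 19 peaks in technical replicate 7 and 11 in technical replicate 1. The strongest start peak had densities of 1.782 and 1.485, at the 34.9 and 22.5 percentiles of genes with a start peak. Of its 5 distal shared regions, those at −10.7 kb had 1.122 and 1.303, at −3.44 kb 0.3805 and 0.899, and at 3.69 kb 0.4847 and 0.9394. The others, at 49.3 kb with 1.506 and 1.04 and at 80.3 kb with 2.167 and 1.717, lay beyond the 3′ end, the latter over an exon of Fdft1, the squalene synthase gene. The region at 80.3 kb was the only distal one of the Gata4, Gata5 and Gata6 windows with WGATAR within 75 bp of its midpoint. The upstream starts of Gata4 near −26 kb had a peak of 0.5087 in the shorter list of technical replicate 7, and no peak in either list of technical replicate 1.

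Gata5, which acts in endoderm and endocardium, had 4 shared regions in chr2:180275133-180384699. Its start had densities of 1.618 and 1.899. The distal ones were at 58.7 kb with 1.807 and 1.899, at −12.6 kb with 1.666 and 1.485, and at −18.8 kb with 0.8372 and 0.8687. The first lay 0.894 kb inside the edge of the window, and another shared region followed 1.53 kb outside. The −12.6 kb region, chr2:180347185-180347406 on the minus strand, is shown because a motif match in it was covered by a footprint in every list; capitals mark the CTCF core, a motif chosen after values were seen and found in 21.3% of all peaks of technical replicate 7. CTCF is the factor that bounds chromatin loops.

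Gata5 upstream region: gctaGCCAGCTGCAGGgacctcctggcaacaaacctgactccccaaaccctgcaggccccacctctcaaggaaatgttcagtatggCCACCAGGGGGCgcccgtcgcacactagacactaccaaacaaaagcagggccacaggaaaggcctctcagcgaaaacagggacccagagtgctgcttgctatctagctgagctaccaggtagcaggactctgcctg

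The second match in it, chr2:180347309-180347320, lay wholly inside a footprint, a short protected stretch, in the shorter and longer lists of technical replicate 7 and in that of technical replicate 1. The first match lay in none. How often CTCF cores over all peaks are covered in this way was not counted, so the covered match is not set against a background. The region at −18.8 kb also held a CTCF core near its midpoint.

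Gata6, the close relative of Gata4 in the liver bud, had a shared start peak, and in the shorter lists no shared region elsewhere in its window. Its window chr18:11002064-11135635 holds no other protein-coding gene and had 2 shared regions, both at the start, with densities of 1.606 and 2.01 for the stronger and 0.6569 and 1.394 for the weaker. Technical replicate 7 had 8 peaks, 4 of them distal; the strongest of these, at −3.06 kb, had 0.8892, and the one in an intron at 25.8 kb had 0.741. Technical replicate 1 had no distal peak in its shorter list and 2 in its longer list. Those 2, at −3.03 kb with 0.9798 and at −1.68 kb with 0.9697, overlapped peaks of technical replicate 7 with 0.8892 and 0.6169.

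**Figure D2:**
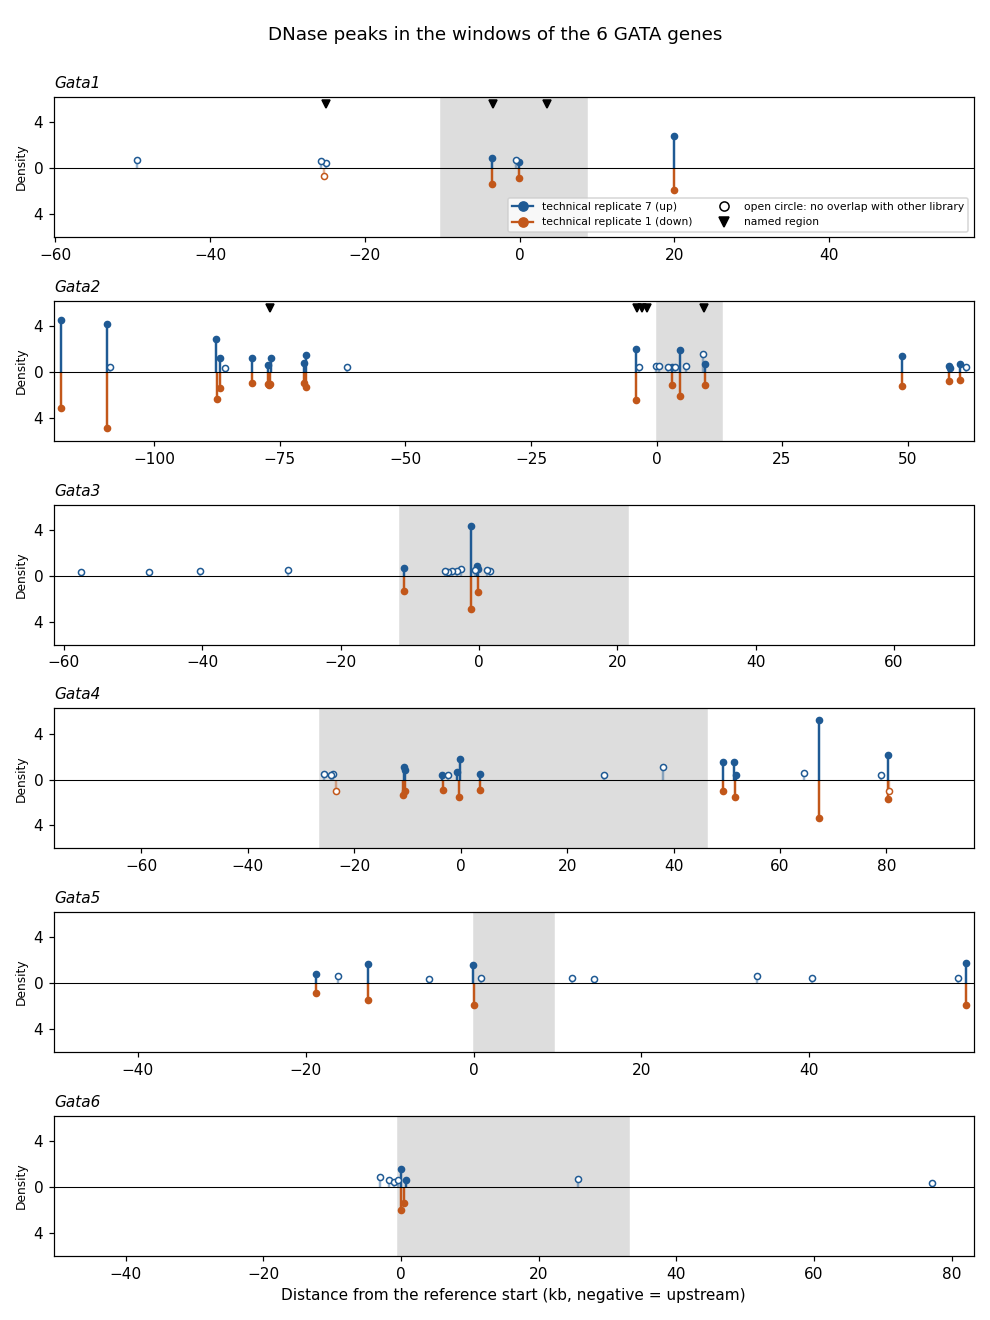
Peaks of the shorter lists in the window of each GATA gene by distance from the reference start in kb; height is the peak's density, upward for technical replicate 7 and downward for technical replicate 1, grey is the gene body, and open circles are peaks with no overlap in the other library. The Gata2 window holds 13 of the 24 distal shared regions, the Gata6 window none.

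The windows of the blood members held more distal shared regions than those of Gata4 to Gata6, and the excess came from the part of the Gata2 window beyond 50 kb. There were 16 against 8, or 3.68 and 1.92 per 100 kb, in 434.9 and 415.9 kb of window. By gene the numbers were 1 for Gata1, 13 for Gata2, 2 for Gata3, 5 for Gata4, 3 for Gata5 and 0 for Gata6. With 50 kb on either side for Gata2 too, Gata2 had 5 and the sums were 8 and 8. In technical replicate 7 alone the distal peaks were 28 and 28, and in technical replicate 1 alone 18 and 11.

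Set beside all protein-coding genes with the same 50 kb flanks, of which 59.9% had at least 1 distal shared region and the median gene had 1, the 6 genes spread over the range. Gata2 and Gata4 had 5 each, at the 92.4 percentile. Gata5 had 3, at the 79.7 percentile, Gata3 had 2, at the 67.7, and Gata1 had 1, at the 50.4. Gata6 had 0, at the 20.1 percentile. The medians were 2 for the blood members and 3 for Gata4 to Gata6. Neither group stood wholly above the other.

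**Figure D3:**
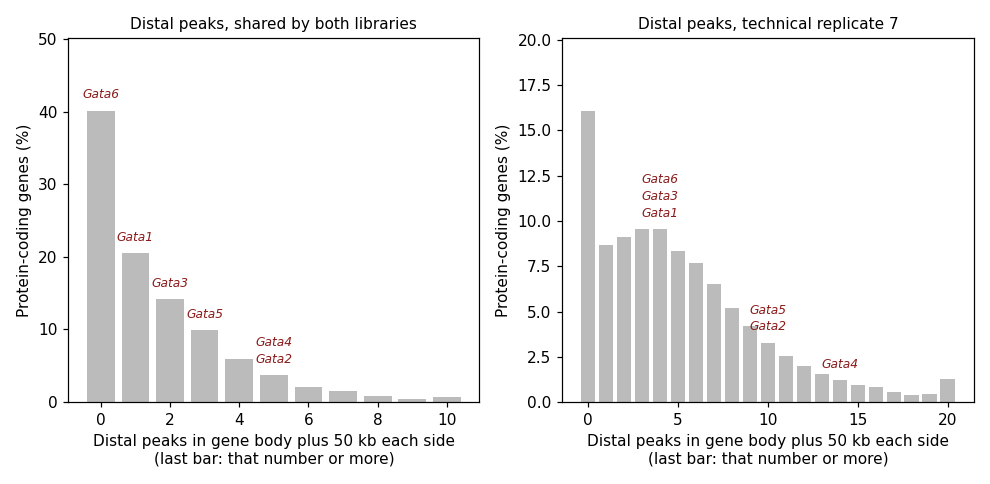
Share of protein-coding genes (%) by the number of distal peaks in the gene body plus 50 kb to each side, for regions shared by both libraries (left) and for technical replicate 7 (right), with the GATA genes written over their bars. Gata2 and Gata4 stand together at 5 shared regions, while Gata6 stands at 0.

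The hotspots covered more of the windows of Gata2 and Gata4 than of the others. In technical replicate 7 they covered 5.4% of the Gata1 window, 10.8% of Gata2, 8.74% of Gata3, 9.21% of Gata4, 6.1% of Gata5 and 5.65% of Gata6. In technical replicate 1 the values were 3.21%, 8.68%, 4.08%, 7.46%, 2.62% and 2.71% in the same order. All lay above the median gene window with 50 kb flanks, which had 3.82% and 2.385%. The Gata2 values above are for its longer window, and with 50 kb flanks they were 9.683% and 8.37%.

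The share of distal regions with a GATA motif had a wide interval, which held the share of all distal regions. WGATAR lay within 75 bp of the midpoint of 6 of 24 distal shared regions, 25% (exact Clopper-Pearson 95% interval 9.77 to 46.7), against 20.9% of all 14326. It was 5 of 16 in the blood windows, 31.2% (11.0 to 58.7), and 1 of 8 in the others, 12.5% (0.316 to 52.7), so the intervals overlap. The composite lay in 1 of the 24, at 60.4 kb from Gata2, against 1.03% of all distal shared regions. The CTCF core lay in 5 of 24, 20.8% (7.13 to 42.2), against 34.6%. The distal regions of the GATA windows were richer in G and C, with a median of 61.6% against 55.6%. These intervals cover counting error only. They take the regions as independent, although 13 of the 24 lay in the Gata2 window, some of them side by side.

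Footprints marked few of the GATA motifs in these windows. The shorter list of technical replicate 7 held 51 footprints in the blood windows and 44 in the others. That of technical replicate 1, made by another processing, held 163 and 125. Of these, 114 lay in the Gata2 window and 66 in the Gata6 window, against 31 and 4 in the shorter list of technical replicate 7. The peaks of technical replicate 7 in the windows held 54 WGATAR words, of which 2 overlapped a footprint of its shorter list, 3.7% (0.452 to 12.7), 5 of its longer list, 9.26% (3.08 to 20.3), and 6 of technical replicate 1, 11.1% (4.19 to 22.6). Over all peaks of technical replicate 7 the shares were 3.92%, 14.2% and 4.85%. Both words marked in the shorter list belonged to blood members, the one in the Gata2 composite at 9.5 kb and the one in the Gata1 peak at −0.519 kb. That was 2 of 28 words, 7.14% (0.877 to 23.5), against 0 of 26 (0 to 13.2) in the other windows, so the intervals overlap. In the windows of Gata4 to Gata6, 2 words overlapped the longer list and 1 that of technical replicate 1.

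The composite of the Gata2 intron, chr6:88203185-88203204, was covered over 18 of its 20 bases in the shorter list of technical replicate 7, over 20 in its longer list and over 9 in that of technical replicate 1. Its AGATAA word was wholly covered in all 3. Of 1259 composites in peaks of technical replicate 7, 78 overlapped a footprint in all 3 lists, 6.2%. At Gata1 the libraries marked neighbouring words: technical replicate 7 covered 4 bases (shorter list) and 6 bases (longer list) of the word at 7968451 to 7968456, and technical replicate 1 covered 5 bases of that at 7968442 to 7968447. The words at −3.5 kb of Gata1 and −77 kb of Gata2 were covered over 3 and 4 bases in technical replicate 1 alone, and those at −3.9 kb of Gata2 in no list.

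**Figure D4:**
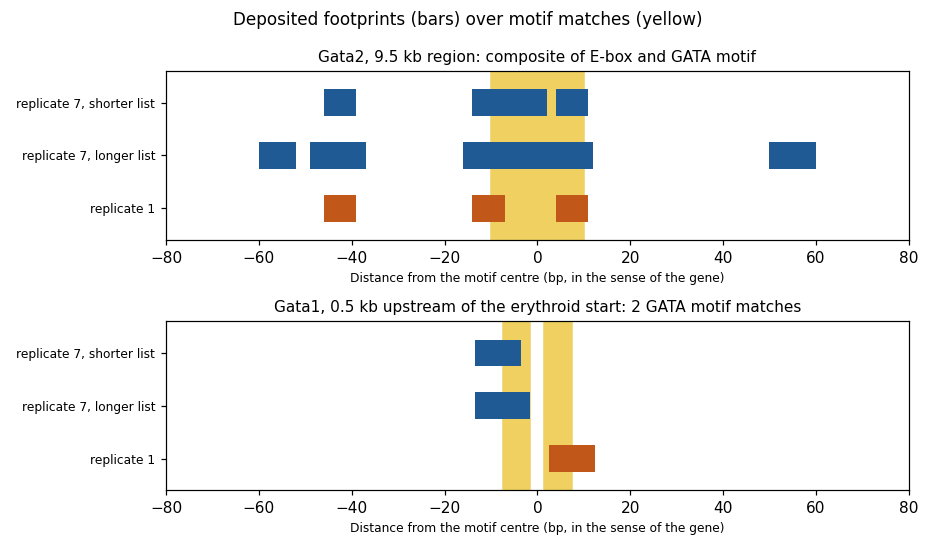
Deposited footprints (bars) around motif matches (yellow), by distance from the motif centre in bp, for the Gata2 composite (top) and the pair of GATA words in the Gata1 peak (bottom), in each of the 3 footprint lists. All 3 lists cover the GATA end of the Gata2 composite, and at Gata1 technical replicates 7 and 1 cover different words.

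The partners of the blood GATA factors were open at their starts throughout: 10 of 10 had a shared start peak, beside the 59.0% of all genes. The partner lists were chosen with earlier results of these data known, so their counts are descriptions and no test. Zfpm1, the cofactor FOG1, had the strongest, with densities of 5.44 and 6.737. Tcf3, an E-box binding partner, had 4.414 and 3.445, the bridging factor Ldb1 had 3.641 and 3.061, and Tal1, which binds the E-box of the composite, had 2.391 and 2.061. The red cell factor Klf1 had 1.15 and 1.01, and Spi1, the myeloid factor that opposes GATA1, 0.7571 and 0.9899. Zfpm1 and Lyl1 each had 20 distal shared regions within 50 kb, above every GATA gene, and the median of the list was 5.

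Of the partners of GATA4, GATA5 and GATA6 in endoderm and heart, 7 of 10 had a shared start peak, also beside the 59.0% of all genes. Srf, the serum response factor, had 5.039 and 3.455, and Zfpm2, the cofactor FOG2, had 0.9013 and 0.899. Hnf4a, the hepatocyte factor, had a start peak of 0.717 in technical replicate 7 alone, and the heart factors Nkx2-5 and Tbx5 had none. The median number of distal shared regions was 2. Of 5 other genes with a GATA-type finger, 4 had a shared start peak, beside the same 59.0%. These were Gatad2a with 6.517 and 6.455, Gatad2b with 4.891 and 4.525, Gatad1 with 3.329 and 2.758, and Trps1 with 1.013 and 1.141. The first 2 encode subunits of the NuRD chromatin remodelling complex. Zglp1, a germ line gene, had none.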

How the data were processed

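DNase-seq of 1 biological sample of embryonic mouse liver was analysed from the files of 2 technical replicate libraries. The assembly is mm10, per the labels. The callers of peaks and footprints, like the aligner, were not given in the sources used here. Peaks were called by the authors library by library, and the deposited peak value is a signal, the highest density of cuts. The deposited hotspots carry a −log10 FDR. The deposited footprints of technical replicate 1 carry a constant p-value or FDR of 0.01, and a deposited file of an earlier processing of that library lists single positions with an FDR below 0.05. Footprints of technical replicate 7 are positions only. The shorter of the paired lists of a library was taken as the stricter, from the values, since no threshold is stated.

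Peaks overlapping by at least 1 bp were merged to give 34020 shared regions, and a region's position is the midpoint of the strongest technical replicate 7 peak in it. Starts came from the GENCODE vM21 basic annotation. Motifs were searched on both strands in the RefSeq sequence of GRCm38. Each gene's percentile is taken among all protein-coding genes with a value. Python 3.11.15, numpy 2.4.6, pandas 2.3.3, scipy 1.17.1 and matplotlib 3.10.9 were used, and overlap, window and motif counts were tested on simulated data. The members, the partner and marker lists, the named elements and the motifs were chosen with earlier results of these data known. All 6 members are named, with the strongest start peak per library, every start with a peak, up to 3 distal shared regions ranked by their mean density percentile, and peaks within 1 kb of 8 listed element distances; the other regions and list genes given were chosen after their values were seen. Alternatives covered the library, the peak list and strength, overlap, start window, starts, flank, motif and footprint list. The remaining lists of the earlier processing were not used.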

Additional observations from a re-analysis of the deposited data

Results flagged for a closer look

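The Gata6 window held a signal in data that no comparison above used. In the per-position file of the earlier processing of technical replicate 1, 10026 bases of this window had a cut rate FDR below 0.05 while lying outside the hotspots of both libraries. That was 62.0% of the 16164 listed bases of the window, which made up 12.1% of its length against 1.36% of the genome. In the same measure the Gata2 window had 2323 bases, Gata5 86, Gata1 12, and Gata3 and Gata4 0. Most of the Gata6 bases lay inside the gene at 11062064 to 11072063 and beyond its 3′ end at 11107064 to 11117063, where neither library listed a peak. Peaks and hotspots of that library come from another processing than this file, and the part of that difference was not tested.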

How the results depend on the processing

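Of 53 alternative values of the counts and shares compared above, 42 kept within the limits set (1.5 times for a count, the interval for a share) and 11 did not. These limits were wide: a start count of 2 in place of 3 was taken as kept, and the interval of the share was 9.77 to 46.7%. Using only the 5′ end of each gene left 1 of 3 blood members with a shared start peak, and 2 of 3 of Gata4 to Gata6. The blood member kept was Gata3, through its shared region at −10.9 kb. The annotated 5′ end of Gata1 has no peak, and that of Gata2 has a peak shared by the libraries only in the longer lists. With the stronger 50% of each list, or the earlier peak list of technical replicate 1 (an alternative added after the data were seen), 2 of 3 blood members kept one. Under both of these settings 3 of 3 of Gata4 to Gata6 kept one. Distal regions in the blood windows (16) became 18 to 28 when either library was used alone, 7 with the stronger 50% of peaks, 5 with flanks of 20 kb and 8 with 50 kb for Gata2 too. With those settings the windows of Gata4 to Gata6 held 6 and 8, so flanks of 20 kb turn the order of the groups. Those of Gata4 to Gata6 (8) became 11 to 28 with 1 library, 14 with the longer lists, 4 with the stronger 50% and 14 with flanks of 100 kb. The longer footprint list of technical replicate 7 gave 167 and 181 footprints in place of 51 and 44, which turns it as well. The share of distal regions with WGATAR ranged from 20.7% to 41.7%. Of 36 alternative values for single members 9 moved: 7 were distal peak counts in the longer lists, such as Gata4 with 27 in place of 14, and the others were the start densities of Gata3 within 2500 bp (4.374 and 2.869, in place of 0.8772 and 1.374). No paired analysis was possible because both libraries come from 1 sample and 1 group.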

Other observations

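A further composite of an E-box and a GATA motif, at chr6:88254192-88254210 in the window of Gata2, lay in a shared region over an exon of Dnajb8 with densities of 0.689 and 0.697. It overlapped a footprint in the longer list of technical replicate 7 and in that of technical replicate 1, and none in the shorter list.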
